A study of Mus musculus with 16 samples.

Results

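The genes described here are 10 long noncoding RNAs (lncRNAs) that are known by name in many mouse tissues: *Malat1*, *Neat1*, *Meg3*, *H19*, *Gas5*, *Snhg1*, *Snhg12*, *Rian*, *Mirg* and *Kcnq1ot1*. They were chosen by gene symbol from a table of estimated counts with 54347 genes. The symbol column held 9 of the 10 names. *Rian* came without a symbol and was found by its Ensembl identifier. Of the 10 genes, 6 passed the filter on low counts and were tested among 13150 genes. These were *Malat1*, *Neat1*, *Gas5*, *Snhg1*, *Snhg12* and *Kcnq1ot1*. The other 4, *H19*, *Meg3*, *Mirg* and *Rian*, had between 2 and 25 counts in all libraries together, so they were not abundant in these cells.

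The cells were wt1-SAM, an immortalized mouse brown preadipocyte line that stably carries the SAM system, in which a dead Cas9 brings activators to the gene named by a single guide RNA (sgRNA). Differentiating cells received 250 ng of plasmid by reverse transfection on day 4 and were harvested on day 7, and their polyadenylated RNA was sequenced. The 16 libraries fell into 4 groups of 4: empty sgRNA vector without or with 1 µM isoproterenol for 24 h, and a pair of sgRNA plasmids against the lncRNA gene *Gm15551*, labelled pSgRNA-MS2-2+7, without or with the same treatment. Isoproterenol is an agonist of β-adrenergic receptors, the receptors through which noradrenaline activates brown fat. Every group, the empty vector included, carried the SAM system and a transfected plasmid, and all data come from 1 cell line. Each group held the replicate numbers 3, 4, 5 and 6. The labels do not say whether a number marks a separate culture or day, so the p-values measure the spread between these samples.

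The libraries held between 9053521 and 16546187 counts each. A single ribosomal RNA gene took 11.7% to 51.8% of them, and 3 libraries were above 40%: empty vector with isoproterenol of replicates 3 and 5, and empty vector control of replicate 5. *Gm15551* had 13 to 56 counts in the libraries labelled sgRNA and 0 to 18 in those labelled empty vector, and was higher with the sgRNAs in all 8 pairs of libraries with the same number and treatment. Levels are given as CPM, the counts of a gene relative to the scaled library size. Adipocyte markers were abundant (*Fabp4* 14462, *Adipoq* 580 and *Plin1* 298 CPM on average). The brown fat markers *Ucp1* and *Cidea* averaged 4.17 and 4.07 CPM, and *Dio2* had 1 count in all. Of the other brown fat markers listed, *Elovl3* averaged 267, *Ppargc1a* 51.9 and *Prdm16* 1.14 CPM. The leukocyte markers *Ptprc* and *Adgre1* had 6 and 1 counts, and the muscle regulator *Myod1* had 0.

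The 10 RNAs belong to different families. *Malat1* and *Neat1* are neighbouring genes whose unspliced transcripts stay in the nucleus, *Malat1* in speckles rich in splicing factors and *Neat1* as the scaffold of paraspeckles. The 3′ ends of *Malat1* and of the long form of *Neat1* are cut by RNase P and protected by a triple helix of U-rich and A-rich tracts in place of a poly(A) tail, while a short form of *Neat1* is polyadenylated. *Gas5*, *Snhg1* and *Snhg12* are host genes: their introns are processed into small nucleolar RNAs (snoRNAs), which guide the modification of ribosomal RNA, while the spliced exons are exported and decay quickly. *Meg3*, *Rian* and *Mirg* are transcribed from the maternal copy of the imprinted *Dlk1*-*Dio3* region, *H19* from the maternal copy beside *Igf2*, and *Kcnq1ot1* from the paternal copy inside *Kcnq1*, whose neighbours it silences in cis.

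The 3′ stretches of *Malat1* and *Neat1* are shown because the libraries were made from polyadenylated RNA and these ends carry such tracts in place of a tail. Both lie in the single exon of the transcript on the minus strand of chromosome 19 (GENCODE M21, GRCm38), at chr19:5795982-5796067 for *Malat1* and chr19:5824708-5824797 for *Neat1*. They are written 5′ to 3′ in the sense of the RNA, with T for U, and capitals mark the U-rich tracts and the final A-rich tract.
Malat1: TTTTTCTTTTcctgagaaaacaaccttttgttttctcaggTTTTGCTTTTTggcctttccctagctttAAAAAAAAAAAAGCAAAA
Neat1: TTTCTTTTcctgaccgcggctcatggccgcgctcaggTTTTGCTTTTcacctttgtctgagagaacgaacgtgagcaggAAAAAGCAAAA
The *Neat1* stretch is the end of its annotated transcript of 20771 bases, whereas the *Malat1* transcript of 6983 bases goes on for 292 bases. The longest run of A in the annotated transcripts was 12 bases in *Malat1*, 7 in *Neat1*, 5 in *Gas5* and in *Snhg1*, 12 in *Snhg12* and 41 in *Kcnq1ot1*.

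The promoters of the 3 host genes are shown because the level of *Snhg1* followed those of *Gas5* and *Snhg12* across the libraries (values below). Each is the stretch from 100 bases before to 20 bases after the start given by RefSeq (GRCm38.p6), all on the plus strand, at chr1:161035066-161035185 for *Gas5*, chr19:8723387-8723506 for *Snhg1* and chr4:132308578-132308697 for *Snhg12*. Capitals mark TGACG or its reverse complement CGTCA, which form the palindrome TGACGTCA of the cAMP response element, and the run of pyrimidines at the start itself, a feature of genes of the translation machinery and of many snoRNA hosts.
Gas5: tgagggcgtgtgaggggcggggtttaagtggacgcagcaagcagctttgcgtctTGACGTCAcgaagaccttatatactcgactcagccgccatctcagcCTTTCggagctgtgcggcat
Snhg1: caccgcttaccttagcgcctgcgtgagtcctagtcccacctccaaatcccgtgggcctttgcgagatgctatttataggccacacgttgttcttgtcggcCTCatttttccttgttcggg
Snhg12: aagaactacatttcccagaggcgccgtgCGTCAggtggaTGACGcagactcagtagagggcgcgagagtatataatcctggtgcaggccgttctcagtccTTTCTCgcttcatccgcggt
*Gas5* has 2 RefSeq promoters. The one shown held the full TGACGTCA 46 bases before the start, and began with a C followed by 4 pyrimidines, while the other held neither. Among 32851 RefSeq promoters of 300 bases, 1.79% held TGACGTCA, which reads the same on both strands, and 2.51% began with C and 4 pyrimidines. *Snhg1* and *Snhg12* did not begin with C and 4 pyrimidines. The run at the start was 3 pyrimidines in *Snhg1* and 6 in *Snhg12*, where it opened with T. *Snhg12* held both orientations of TGACG without the palindrome, and *Snhg1* held neither. TGACG on either strand, copies inside TGACGTCA included, occurred in 20.8% of the promoters. Of the 10 genes, 8 had a RefSeq promoter. Among the others, *Malat1* and *Kcnq1ot1* held TGACG on either strand, *Meg3* held TGACGTCA 57 bases before 1 of its starts, and CCAAT, searched on both strands and present in 37.4% of promoters, occurred in *Kcnq1ot1*, *Meg3* and *Mirg*. Such matches describe the letters only.

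By CPM, which are not divided by length, *Malat1* had the highest level of the 10 RNAs. The CPM were scaled by the TMM method. *Malat1* (chr19:5795690-5802672, minus strand) averaged 1136 CPM over the 16 libraries and stood at the 99.65th percentile of the genes tested. *Neat1* (chr19:5824708-5845478, minus strand) averaged 133 CPM. The host genes followed with 84.3 CPM for *Snhg1* (chr19:8723475-8726443), 50.1 for *Gas5* (chr1:161034422-161038539) and 23.2 for *Snhg12* (chr4:132308623-132311024), all on the plus strand. They hold 8, 9 and 4 annotated snoRNA loci. *Kcnq1ot1* (chr7:143203458-143296549, minus strand) averaged 33.8 CPM, while *Kcnq1*, in which it lies antisense, had 10 counts in all.

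Levels of different genes compare only per length. Per kilobase of the longest annotated transcript, the mean level ± SD over the 16 libraries was 163 ± 48.7 CPM per kb for *Malat1*, 30.9 ± 7.36 for *Snhg1*, 19.6 ± 3.27 for *Gas5*, 15.1 ± 2.03 for *Snhg12*, 6.38 ± 1.44 for *Neat1* and 0.364 ± 0.0762 for *Kcnq1ot1*. The ranges of *Snhg1* (23.3 to 46.7) and *Gas5* (14.9 to 26.4) overlapped, as did those of *Gas5* and *Snhg12* (12.03 to 19.02), and the other neighbours in this order did not. Within each library the order was the same in 16 of 16 cases for every neighbouring pair. This order rests on the transcript taken, which was the longest for every gene. *Neat1* has 4 annotated transcripts, and its mean is 6.38 CPM per kb for the longest of 20771 bases. With the others, of 3004, 1030 and 711 bases, it would be 44.2, 129 and 187 CPM per kb. Each is above all 3 host genes, and the last above *Malat1*, when those are taken at their longest transcripts. *Malat1*, *Gas5*, *Snhg1* and *Snhg12* have 4, 25, 18 and 10 annotated transcripts, and their shorter ones were not tried. Gene-level counts do not say which form gave the reads.

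The imprinted RNAs other than *Kcnq1ot1* were near the limit of detection. *H19* (chr7:142575529-142578143), which gives rise to a microRNA and is abundant in fetal tissues, had 1 count in each of 3 libraries. *Meg3* (chr12:109541001-109571726) had 8 counts in 6 libraries and *Mirg* (chr12:109729764-109749460), the host of a microRNA cluster with 14 annotated loci, had 2 counts in 1 library. *Rian* (chr12:109603940-109661716), which holds 13 snoRNA loci, had 25 counts in 10 libraries. By group its counts were 4 in empty control, 1 in empty isoproterenol, 6 in sgRNA control and 14 in sgRNA isoproterenol cells, with at most 5 in a library. A count of 0 allows up to 3 counts, or 0.166 to 0.390 CPM depending on the library, for counting error only, and no test was made on these 4 genes.

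Of 20 listed neighbours of the imprinted loci, 13 were too low to be tested. *Dlk1*, *Rtl1* and *Dio3*, the protein-coding genes of the paternal copy at the *Meg3* locus, had 32, 12 and 2 counts. *Igf2*, the growth factor gene beside *H19*, had 55, and *Cdkn1c*, a growth inhibitor gene of the *Kcnq1ot1* domain, had 6. The other 7 were tested, and *Nap1l4*, a histone chaperone gene, and *Cd81*, a tetraspanin gene, both near *Kcnq1ot1*, averaged 137 and 99.5 CPM.

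**Figure D1:**
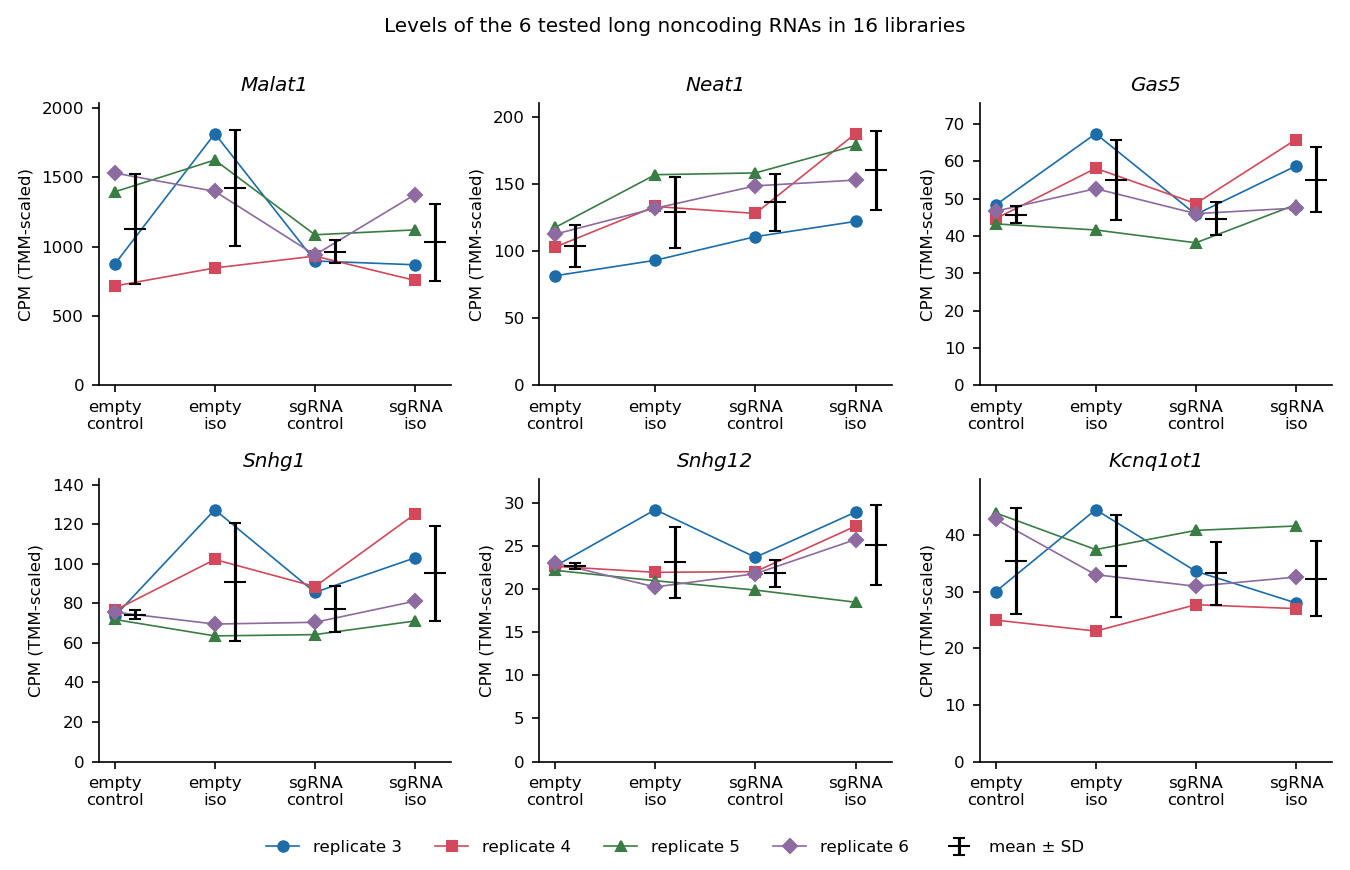
TMM-scaled CPM of the 6 tested lncRNAs (y axis, from 0) in the 4 groups (x axis). Coloured points are libraries, lines join libraries of the same replicate number, and black bars give the group mean ± SD (n = 4). The group means of *Neat1* are 104, 129, 137 and 161 CPM from left to right, while *Malat1* spreads from 716 to 1814 CPM with the widest scatter in empty vector cells.

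The next comparison asks how β-adrenergic stimulation changed these RNAs. Averaged over both plasmids, none of the 6 tested lncRNAs was called in edgeR's quasi-likelihood test, where a call needed a log2 fold change beyond 0.5 in either direction and an adjusted p under 0.05. This rule called 2.65% of all genes tested. DESeq2 called 0 of the 6 as well, and its share of all genes is not given here. In edgeR's test 2 of the 6 had an unadjusted p under 0.05, as did 17.7% of all genes. All 6 estimates lay below the bound of 0.5. With the replicate number in the model the rule called 5.70% of all genes and again none of the 6. Without the bound on the fold change, an adjusted p under 0.05 in that model was reached by 21.3% of genes, 10.9% higher and 10.4% lower with isoproterenol. By this criterion 3 of the 6 lncRNAs rose, *Neat1*, *Gas5* and *Snhg1*, and none fell. In bulk RNA such a change in level cannot be split into a change per cell and a change in the share of cells that express the gene.

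*Neat1*, the paraspeckle RNA, was higher with isoproterenol in 8 of 8 pairs of libraries. In empty vector cells its level was 81.8, 103, 118 and 113 CPM in the control libraries of replicates 3 to 6 and 93.4, 134, 157 and 132 CPM in the stimulated ones. In sgRNA cells it was 111, 128, 159 and 149 CPM without and 122, 188, 179 and 153 CPM with isoproterenol. Replicate 3 was the lowest in every group, and the ranges of control and stimulated groups overlapped. The log2 ratios within pairs ran from 0.04 to 0.55. The log2 fold change was 0.27 (SE 0.054, 95% interval 0.15 to 0.38, adjusted p = 0.00229) with the replicate number. Without it the estimate was 0.27 (SE 0.12, adjusted p = 0.253). In all 20 fits that left out 1 library or 1 replicate number, the adjusted p with the replicate number stayed under 0.05, with a highest value of 0.0295.

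*Gas5*, whose exons are known to accumulate when growth is arrested, was higher with isoproterenol in 7 of 8 pairs. Its level was 48.3, 44.6, 43.2 and 46.6 CPM in empty control and 67.4, 58.1, 41.6 and 52.7 CPM in empty isoproterenol libraries, in the order of replicates 3 to 6. In sgRNA cells the values were 45.8, 48.7, 38.2 and 46.0 CPM without and 58.7, 65.8, 48.4 and 47.5 CPM with isoproterenol. The control libraries lay close together and the stimulated ones spread, with the replicates 3 and 4 highest. The log2 fold change was 0.28 (SE 0.065, 95% interval 0.14 to 0.42, adjusted p = 0.00635) with the replicate number and 0.28 (SE 0.097, adjusted p = 0.117) without it. Leaving out replicate number 3 or 4 raised the adjusted p of the fit with the replicate number to 0.0518 or 0.0529.

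*Snhg1*, first described as the host of a snoRNA named U22, was higher with isoproterenol in 6 of 8 pairs. Its level was 73.4, 76.4, 71.8 and 75.5 CPM in empty control libraries of replicates 3 to 6 and 127, 102, 63.5 and 69.5 CPM in stimulated ones. In sgRNA cells it was 85.5, 88.4, 64.1 and 70.4 CPM without and 103, 125, 71.0 and 81.1 CPM with isoproterenol. All 4 pairs of replicates 3 and 4 were higher, by log2 ratios of 0.27 to 0.79, against 2 of 4 pairs of replicates 5 and 6, with −0.18 to 0.20. The log2 fold change was 0.27 (SE 0.089, 95% interval 0.08 to 0.46, adjusted p = 0.0452) with the replicate number and 0.29 (SE 0.14, adjusted p = 0.305) without it. The adjusted p stayed under 0.05 in 6 of the 20 fits that left out 1 library or 1 replicate number and reached 0.226 without replicate number 4. With the ribosomal RNA share of the library added to the fit with the replicate number, the log2 fold change was 0.23 (SE 0.094, adjusted p = 0.107).

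The other 3 did not pass the test. *Snhg12* had a log2 fold change of 0.11 (95% interval −0.04 to 0.26, adjusted p = 0.315) with the replicate number, and its 4 empty control libraries lay between 22.2 and 23.1 CPM. This value was 0.07 without either empty vector library of replicate 3, 0.03 without replicate number 3 and 0.16 without number 5. It was 0.04 with the ribosomal RNA share added and 0.06 without the 3 libraries above 40% ribosomal RNA. *Malat1* had 0.20 (95% interval −0.06 to 0.47, adjusted p = 0.270), with 5 of 8 pairs higher. This value was 0.09 without the empty isoproterenol library of replicate 3, 0.09 with the ribosomal RNA share added and 0.06 without the 3 libraries above 40% ribosomal RNA. *Kcnq1ot1* had −0.04 (95% interval −0.24 to 0.16, adjusted p = 0.818), with 3 of 8 pairs higher. This value was −0.13 without the empty isoproterenol library of replicate 3 and 0.02 without the empty control library of replicate 6. It was −0.06 with the ribosomal RNA share added and −0.12 without the 3 libraries above 40% ribosomal RNA.

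**Figure D2:**
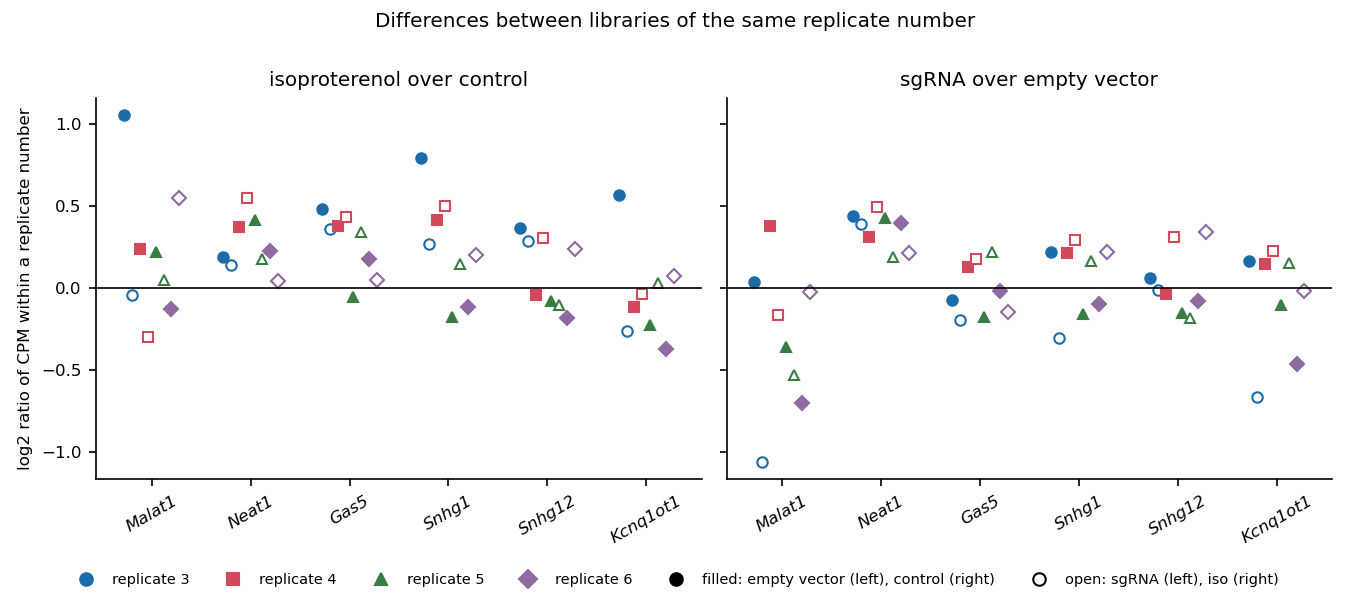
Log2 ratios of CPM (y axis) between libraries of the same replicate number for the 6 lncRNAs (x axis), for isoproterenol over control on the left and sgRNA over empty vector on the right. Each point is 1 of 8 pairs, and every library enters both panels. *Neat1* lies above 0 in all 8 pairs of both panels, and *Malat1* spans −1.06 to 0.38 for the sgRNAs.

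Without the replicate number in edgeR's test, the macrophage marker *Cd68* rose with isoproterenol (log2 fold change 0.91, SE 0.17, adjusted p = 0.00518). The summed level of the 5 listed macrophage and leukocyte markers, of which *Cd68* was the 1 high enough to be tested, was 8.18 to 14.4 CPM in empty control and 14.4 to 22.6 CPM in empty isoproterenol libraries. In sgRNA cells it was 6.44 to 13.8 CPM without and 13.6 to 22.1 CPM with isoproterenol. *Ptprc* and *Adgre1*, which define these cells, were near 0 throughout. The summed level of the preadipocyte list ran from 8.83 to 62.1 CPM in empty control and from 13.9 to 84.7 CPM in empty isoproterenol libraries. In the corresponding sgRNA libraries it ran from 4.49 to 34.9 and from 12.3 to 59.4 CPM. The 7 adipocyte markers summed to 16832 to 27316 CPM in empty control and 12790 to 22697 CPM in empty isoproterenol libraries, and to 20307 to 25899 and 13743 to 24332 CPM in the corresponding sgRNA libraries. The 6 brown fat markers summed to 195 to 405 and 249.9 to 457 CPM in empty vector cells, and to 225 to 423 and 331 to 567 CPM in sgRNA cells, without and with isoproterenol. The part of these lists in the results was not tested.

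Other snoRNA host genes were examined beside *Gas5*, *Snhg1* and *Snhg12*. Of 24 listed hosts 19 were tested, and 8 of them rose with isoproterenol at an adjusted p under 0.05 with the replicate number, while none fell. The share of all genes that rose in that test was 10.9%. The largest changes were those of *Snhg15* (log2 fold change 0.49, SE 0.078, adjusted p = 0.000345), *Snhg6* (0.38, SE 0.074, adjusted p = 0.00190), *Rack1*, a protein of the small ribosomal subunit (0.32), and *Hspa8*, a chaperone gene (0.31). None of the 19 was called with the bound of 0.5. The median log2 fold change of the list was 0.16, against 0.0028 over all genes, and 16 of the 19 estimates were positive. In this order *Gas5* and *Snhg1* came between *Zfas1* (0.31) and *Eif4a2* (0.19). Without the replicate number none of these 6 named hosts passed, with adjusted p of 0.0601 to 0.310 in edgeR's test.

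**Figure D3:**
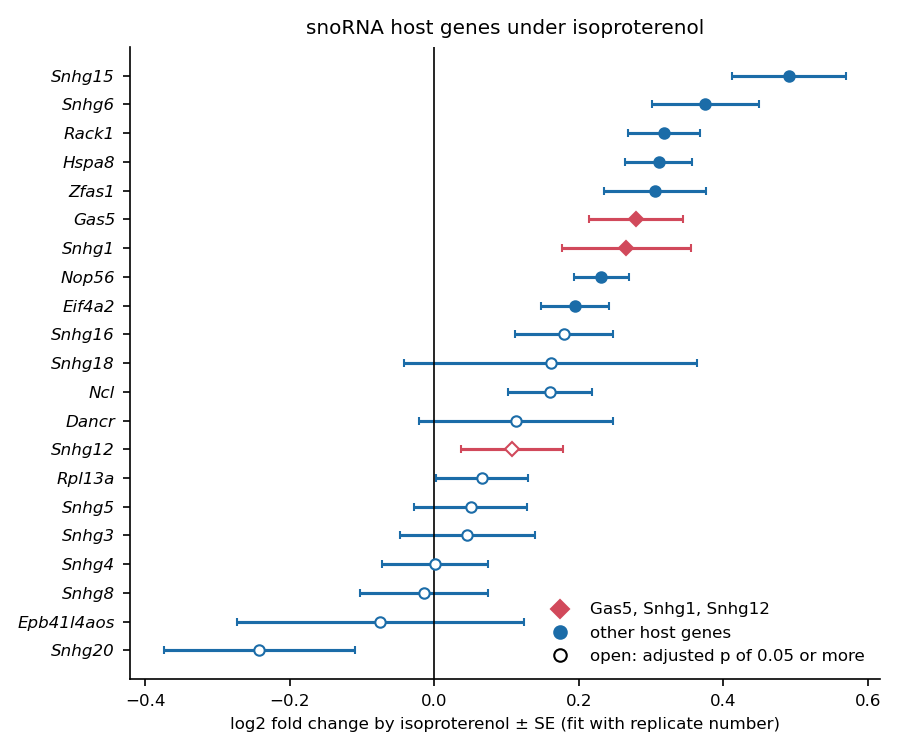
Log2 fold change by isoproterenol ± SE (x axis) in the fit with the replicate number for 21 snoRNA host genes (y axis), ordered by estimate. Red diamonds are *Gas5*, *Snhg1* and *Snhg12*, blue circles 18 of the 19 other hosts tested, and filled symbols have an adjusted p under 0.05. Filled symbols hold the upper part of the plot, from *Eif4a2* (0.19) to *Snhg15* (0.49).

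Of 19 listed genes for the proteins of paraspeckles and speckles, the bodies of *Neat1* and *Malat1*, all were tested. Among them *Pspc1*, which encodes a core paraspeckle protein, rose (log2 fold change 0.20, SE 0.048, adjusted p = 0.00809 with the replicate number), none fell, and the list median was −0.01. Of the 7 tested neighbours of the imprinted loci, 2 rose: *Tnfrsf23* (1.09, SE 0.10, adjusted p = 1.8e-06) and *Tnfrsf22* (0.45, SE 0.12, adjusted p = 0.0141), decoy receptor genes near the *Kcnq1* domain. *Tnfrsf23* averaged 8.90 CPM in control and 19.5 CPM in stimulated libraries and was also called without the replicate number (adjusted p = 0.0306). The list median was −0.09. Of 19 other named lncRNAs tested, *Chaserr* (0.35, SE 0.071, adjusted p = 0.00224) and *Mir22hg* (0.27, SE 0.085, adjusted p = 0.0330) rose and *Lockd* fell (−0.36, SE 0.093, adjusted p = 0.0125), with a list median of 0.07. Of all genes, 10.9% rose and 10.4% fell in that test. Without the replicate number *Chaserr* had an adjusted p of 0.0148 and was not called, its estimate being within the bound of 0.5, and *Pspc1*, *Tnfrsf22*, *Mir22hg* and *Lockd* had 0.223 to 0.321.

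The sgRNA comparison asks whether activation of *Gm15551* moved these RNAs. Averaged over both treatments, none of the 6 was called in edgeR's test of the 4 group means, which called 0% of all genes tested. Of the 6, 1 had an unadjusted p under 0.05, as did 3.32% of all genes. DESeq2 called 0 of the 6, and its share of all genes is not given here. With the replicate number in the model the rule with the fold bound called 0.266% of genes and none of the 6. Without the bound 0.586% of genes passed, 0.137% higher and 0.449% lower with the sgRNAs, and *Neat1* was the 1 lncRNA of the 6 among them.

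*Neat1* was higher with the sgRNAs in 8 of 8 pairs, with log2 ratios of 0.19 to 0.49. Its mean was 104 ± 15.9 CPM in empty control and 137 ± 21.3 in sgRNA control cells, and 129 ± 26.4 and 161 ± 29.4 CPM in the corresponding stimulated cells (SD, n = 4). The ranges of empty and sgRNA libraries overlapped in both treatments. The log2 fold change was 0.36 (SE 0.054, 95% interval 0.25 to 0.47, adjusted p = 0.00417) with the replicate number and 0.36 (SE 0.12, adjusted p = 0.9997) without it. Leaving out replicate number 3 raised the adjusted p to 0.0543, and the other 19 fits with 1 library or replicate number left out stayed under 0.05. With the ribosomal RNA share as a further term the log2 fold change was 0.28 (SE 0.080, adjusted p = 0.557), and without the 3 libraries above 40% it was 0.37 (SE 0.065, adjusted p = 0.0358).

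*Malat1* was lower with the sgRNAs in 6 of 8 pairs and did not pass the test. Its level was 873, 716, 1395 and 1531 CPM in empty control and 1814, 847, 1624 and 1398 CPM in empty isoproterenol libraries of replicates 3 to 6. In sgRNA cells it was 897, 932, 1086 and 941 CPM without and 869, 756, 1121 and 1376 CPM with isoproterenol. The empty vector libraries of replicates 5 and 6 were high, as were empty isoproterenol of replicate 3 and sgRNA isoproterenol of replicate 6, while the sgRNA control libraries lay close together. The log2 fold change was −0.35 (SE 0.18, 95% interval −0.74 to 0.05, adjusted p = 0.9997) without and −0.31 (SE 0.12, 95% interval −0.58 to −0.05, adjusted p = 0.352) with the replicate number. Without the empty isoproterenol library of replicate 3 the latter was −0.19 (adjusted p = 0.415).

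The ribosomal RNA share of the library moved with *Malat1*. It averaged 29.0% ± 12.8 in empty control, 36.8% ± 12.8 in empty isoproterenol, 19.1% ± 1.11 in sgRNA control and 21.1% ± 7.18 in sgRNA isoproterenol libraries (SD, n = 4). Across the 16 libraries the share, on a logit scale, and the log2 level of *Malat1* had a Pearson r of 0.83 (permutation p adjusted over 9 relations = 0.000225) and a Spearman rho of 0.738 (adjusted permutation p = 0.00684). Without the 2 libraries farthest from the median share, r was 0.842, and after removing group and replicate means it was 0.616. Libraries of the same replicate number are not independent points, and no p is given for r after removing these means. With the share as a term in the model the sgRNA estimate of *Malat1* was 0.12 (SE 0.16), with the replicate number added it was 0.02 (SE 0.15), and without the 3 libraries above 40% it was −0.08 (SE 0.11, with the replicate number).

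For *Kcnq1ot1* the same relation had r = 0.573 (adjusted permutation p = 0.0354) and rho = 0.556 (adjusted permutation p = 0.0639), with r = 0.5 without the 2 farthest libraries and 0.188 after removing group and replicate means. Here too the libraries are not independent points, and the last r has no p. For *Neat1*, *Gas5*, *Snhg1* and *Snhg12* r lay between −0.244 and −0.00955 and no p passed. After removing group and replicate means, r was 0.684 for *Snhg12*, 0.309 for *Snhg1*, −0.0548 for *Gas5* and −0.415 for *Neat1*, given as a description.

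**Figure D4:**
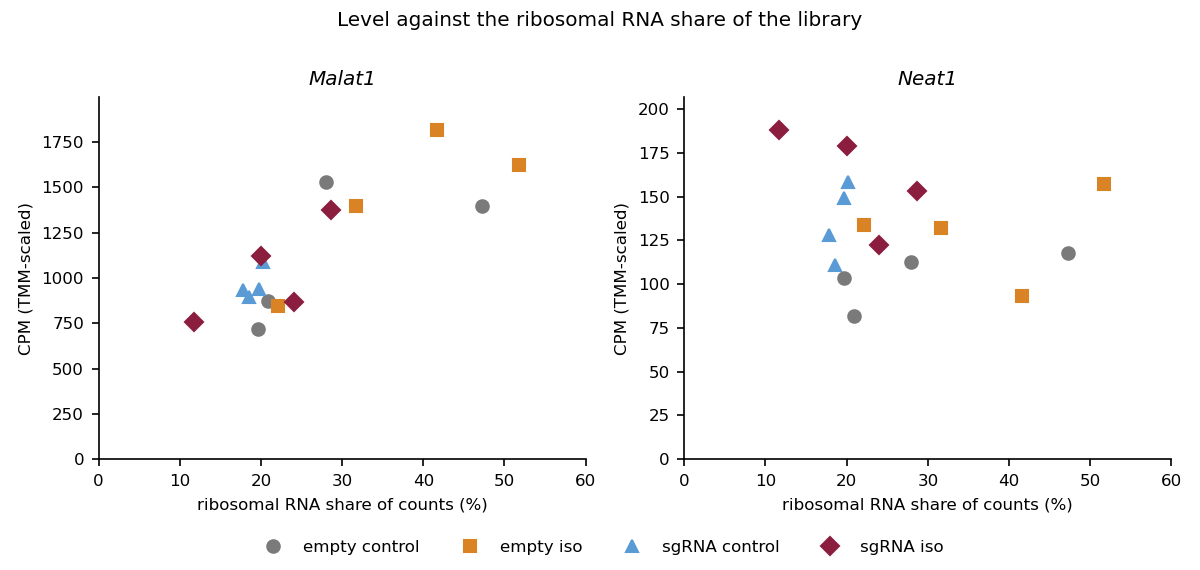
TMM-scaled CPM (y axis) of *Malat1* on the left and *Neat1* on the right against the ribosomal RNA share of counts in percent (x axis) in 16 libraries, with colours and symbols for the 4 groups. *Malat1* climbs with the share (r = 0.83 between log2 level and logit share), and *Neat1* does not (r = −0.204).

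A list drawn up as RNAs without poly(A) tails, mostly histone RNAs, was set beside *Malat1*. Whether each listed RNA, *H2bc7* and *H2bc4* included, lacked a tail in these cells was not measured. Of 29 listed 23 were tested. With the sgRNAs 4 of the 23 estimates were positive, and the list median was −0.73, against −0.0055 over all genes. The list includes *H1f0*, a linker histone gene whose mRNA is polyadenylated and which was 1 of the 4, and without it the median of 22 genes was −0.79. *H2bc7* fell by 1.49 on the log2 scale (adjusted p = 0.0206 with the replicate number, 0.9997 without it) and none rose. Of all genes, 0.137% rose and 0.449% fell with the sgRNAs in that fit, against 10.9% and 10.4% with isoproterenol. With isoproterenol *H2bc4* fell (−0.39, adjusted p = 0.00655 with the replicate number, 0.253 without it), none rose, and the list median was 0.09.

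The remaining lncRNAs did not pass the test for the sgRNAs. With the replicate number the log2 fold change was −0.01 (95% interval −0.15 to 0.13) for *Gas5*, 0.06 (−0.13 to 0.25) for *Snhg1*, 0.04 (−0.11 to 0.19) for *Snhg12* and −0.07 (−0.27 to 0.13) for *Kcnq1ot1*. Adding the ribosomal RNA share to that fit gave 0.21 (SE 0.093) for *Snhg12* and 0.18 (SE 0.13) for *Snhg1*, and leaving out the 3 libraries above 40% gave 0.17 (SE 0.068) and 0.19 (SE 0.076). None of these passed, with adjusted p of 0.530 to 0.99998 in edgeR's test. The 20 fits with the replicate number that left out 1 library or number gave −0.06 to 0.03 for *Gas5* and 0.01 to 0.15 for *Snhg1*. For *Snhg12* they gave 0.01 to 0.11, and for *Kcnq1ot1* −0.15 to 0.02. Of the 19 other snoRNA hosts, *Snhg16* rose in the fit with the replicate number (0.33, SE 0.068, adjusted p = 0.0371) and did not pass without it (adjusted p = 0.9997), none fell, and the median was 0.03. In the fit with the replicate number 0.137% of all genes rose and 0.449% fell. None of the tested imprinted neighbours, speckle and paraspeckle genes or other named lncRNAs passed, with list medians of −0.17, 0.01 and 0.05.

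**Figure D5:**
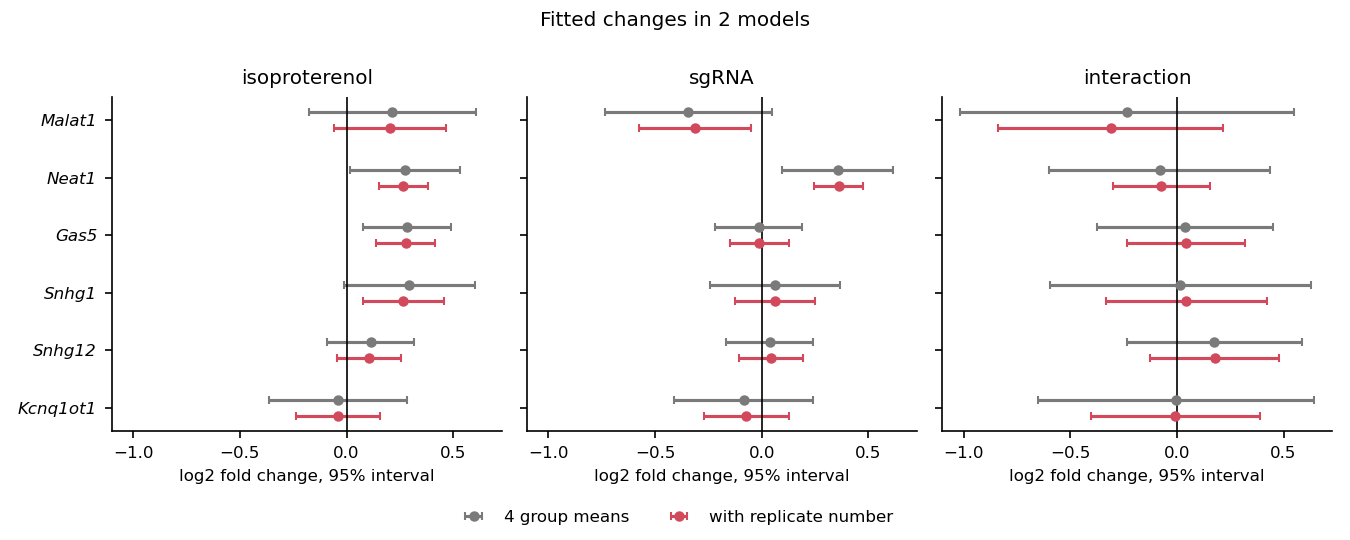
Log2 fold changes with 95% intervals (x axis, the same scale in each panel) of the 6 lncRNAs (y axis) for isoproterenol, the sgRNAs and their interaction, in the model of 4 group means (grey) and with the replicate number (red). The red interval of *Neat1* lies above 0 in the isoproterenol and the sgRNA panel, and all intervals of the interaction cover 0.

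Whether the response to isoproterenol differed with the sgRNAs was tested by the interaction. None of the 6 was called, 0 had an unadjusted p under 0.05 in edgeR's test, and 0% of all genes passed with or without the replicate number. The difference of the log2 changes, with the replicate number, was −0.31 (95% interval −0.84 to 0.22) for *Malat1* and −0.07 (−0.30 to 0.15) for *Neat1*. It was 0.04 (−0.23 to 0.32) for *Gas5*, 0.04 (−0.33 to 0.42) for *Snhg1*, 0.18 (−0.12 to 0.48) for *Snhg12* and −0.01 (−0.40 to 0.39) for *Kcnq1ot1*. Differences within these bounds could not be told from 0.

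Within single groups none of the 6 was called by the rule with the fold bound and without the replicate number. For isoproterenol that rule called 0.829% of genes in empty vector cells and 0.700% in sgRNA cells, and for the sgRNAs 0% in either treatment. With the replicate number and no bound, 9.57% of genes passed for isoproterenol in empty vector cells, 8.40% in sgRNA cells, 0.0380% for the sgRNAs in control cells and 0.137% in stimulated cells. *Neat1* passed for isoproterenol in empty vector cells (log2 fold change 0.30, SE 0.077, adjusted p = 0.0203), and no other of the 6 passed in these 4 comparisons. In 8 of the 20 fits that left out 1 library or replicate number none of the 6 passed, so this call of *Neat1* was lost there. Those without any 1 of the 4 numbers were among them. Which gene passed in the other fits is not given here. Without the 3 libraries above 40% ribosomal RNA, 0 of the 6 passed in empty vector cells and 2 in sgRNA cells. The share of all genes passing without those libraries is not given here, so these counts are not set against it. In sgRNA cells the isoproterenol estimates were 0.23 (SE 0.075, adjusted p = 0.0762) for *Neat1* and 0.30 (SE 0.091, adjusted p = 0.0538) for *Gas5*. The sgRNA estimates of *Neat1* were 0.40 (SE 0.076, adjusted p = 0.0921) in control and 0.32 (SE 0.076, adjusted p = 0.243) in stimulated cells. These comparisons share libraries, so they are not separate evidence.

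Across the 16 libraries the level of *Snhg1* followed those of *Gas5* and *Snhg12*, while *Gas5* and *Snhg12* did not pass by rank. *Gas5* and *Snhg1* had r = 0.903 and rho = 0.718 (adjusted permutation p = 0.000225 and 0.00813), *Snhg1* and *Snhg12* r = 0.803 and rho = 0.803 (0.00084 and 0.00405), and *Gas5* and *Snhg12* r = 0.673 and rho = 0.447 (0.00954 and 0.151). Without the 2 libraries farthest from the median, empty isoproterenol of replicate 3 and sgRNA isoproterenol of replicate 4, r was 0.783, 0.656 and 0.414. After removing group and replicate means it was 0.805, 0.728 and 0.322. These libraries are not independent points either, and no p is given for r after removing these means.

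The genes most like each lncRNA in their log2 levels over the 16 libraries, are given by Pearson r and as a description. For *Malat1* they were *Gm37296* (0.96), the mitochondrial ribosomal RNA *mt-Rnr2* (0.92) and the histone gene *H3c2* (0.90). For *Gas5* they were *Actr6* (0.95) and the ribosomal protein genes *Rps7* (0.94) and *Rpl22l1* (0.93), and for *Snhg1* *Gtf2h1*, a subunit gene of the transcription factor TFIIH (0.94), the snoRNA host *Zfas1* (0.94) and *Orc4*, of the origin recognition complex (0.93). *Snhg12* was most like *Gm18609* (0.86), *Ints14* (0.85) and *Med30* (0.83), *Kcnq1ot1* most like *Lnpep* (0.92), *Gm42463* (0.90) and *Mtpap* (0.90), and *Neat1* most like *Paxbp1* (0.88), *Ltbp3* (0.84) and *Ugp2* (0.84). After removing group and replicate means, r was 0.61, 0.49 and −0.06 for the 3 genes of *Neat1* and 0.64 to 0.92 for the 15 genes of the other lncRNAs. Libraries of the same number share a replicate, so the 16 points are not independent.

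Overlapping genes limit some of these values, since the use of read strand was not stated in the sources used here. *Gas5* overlaps the start of *Zbtb37* on the other strand, which had 4769 counts in all against 10298 for *Gas5*. *Malat1* overlaps *Gm37376* on the other strand, with 2682 counts against 218264.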

How the data were processed

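Paired-end libraries of polyadenylated RNA were made with the NEBNext Ultra II kit and sequenced on a NovaSeq. The authors trimmed by cutadapt, ran salmon on the GENCODE M22 transcripts of GRCm38, and deposited each gene's estimated count as a whole number without normalization. Versions of these tools and whether read strand was used are not given in the sources used here. Salmon divides reads among transcripts that share sequence, so values of overlapping genes are uncertain. Groups came from the sample titles. The design text speaks of triplicates, and the titles name 4 replicates in each group.

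Counts were analysed in R 4.3.3 with edgeR 4.0.16. Genes were kept by filterByExpr (minimum count 10, minimum total 15), scaled by TMM, and tested with edgeR's quasi-likelihood test (glmQLFit, glmQLFTest, two-sided) on 4 group means, with Benjamini-Hochberg adjustment over 13150 genes. A gene was called at a log2 fold change beyond 0.5 in either direction with an adjusted p under 0.05. CPM are TMM-scaled, and log2 CPM used a prior count of 2. Without molecular identifiers, limits set by counts cover counting error only. The fits were tested on simulated data, and the outcome of that check is not given here.

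Libraries of the same replicate number deviated together from their group means, with correlations of log2 CPM of 0.22 to 0.61 within a number. The median between numbers was −0.21, which is no separate support. Deviations within a group sum to 0, so positive values within a number force negative ones between numbers. The biological coefficient of variation fell from 18.0% to 9.96% with the number as a block. The number was thus taken to pair libraries, and the blocked values of the lncRNAs are given beside those of the main model. Calls in the gene lists are from the blocked fit. Alternatives were DESeq2 1.42.0, other scalings and filters, the ribosomal RNA share (logit) as a covariate, and leaving out libraries. The criterion with the block and no fold bound, and the fits without the 3 libraries above 40% ribosomal RNA, were chosen after seeing the data. Correlation p-values used 100000 permutations.

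The 10 lncRNAs and the gene lists were chosen with earlier results of these data known. Named from each list were its imprinted locus partners, up to 4 genes with the largest change that passed, and for each lncRNA the 3 genes most like it. *Zfas1*, *Eif4a2*, *Nap1l4*, *Cd81* and *H1f0* were named after their values were seen, and 1 listed host gene is not reported here by name. Coordinates are from GENCODE M21 and promoters from RefSeq (GRCm38.p6).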

Additional observations from a re-analysis of the deposited data

How the results depend on the processing

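None of the 6 lncRNAs was called with the fold bound in any of the 7 comparisons under any other scaling, filter, covariate, left-out library or replicate block, and DESeq2 called none. Without the bound and with the replicate block, 3 passed for isoproterenol, 1 for the sgRNAs and 1 for isoproterenol in empty vector cells; with the ribosomal RNA share added, 2 passed for isoproterenol and 0 for the sgRNAs. Without the 3 libraries rich in ribosomal RNA, 0 passed for isoproterenol in empty vector cells and 2 in sgRNA cells. The shares of all genes passing in these alternative fits are not given, so the counts are not set against them. When 1 library or replicate number was left out, the blocked counts ranged from 1 to 3 for isoproterenol, from 0 to 1 for the sgRNAs, and from 0 to 1 for isoproterenol in empty vector cells, for isoproterenol in sgRNA cells and for the sgRNAs in control cells. The replicate block changed no other call.

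Of the 12 log2 changes, 6 kept their sign under all alternatives, among them those of *Neat1*, *Gas5*, *Snhg1* and *Malat1* for isoproterenol and of *Neat1* for the sgRNAs. Scaling by library totals shifted the median of all genes by 0.28 for the sgRNAs and by −0.12 for isoproterenol, and gave −0.025 for *Snhg12* with isoproterenol and 0.27 and 0.24 for *Gas5* and *Kcnq1ot1* with the sgRNAs. Relative to the median these were 0.09, −0.01 and −0.03. For the sgRNAs, the ribosomal RNA share as a covariate gave 0.12 for *Malat1*, −0.10 for *Snhg1* and 0.25 for *Kcnq1ot1*, and with the replicate block 0.021 for *Malat1* and 0.0028 for *Kcnq1ot1*. No filter gave 0.016 for *Gas5*. Without the 3 rich libraries *Kcnq1ot1* had 0.13, and with the block added 0.023, and *Gas5* had 0.030. Leaving out 1 library or number gave −0.066 to 0.042 for *Gas5* and −0.0075 to 0.17 for *Snhg1* with the sgRNAs, and −0.12 to 0.037 for *Kcnq1ot1* with isoproterenol. The cause of these changes was not tested. Libraries differed in total counts and in the ribosomal RNA they held, and changes under the intervals given could not be resolved.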
